A study of Mus musculus with 6 samples.

Results

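Inflammatory mRNAs are short-lived, and a small set of RNA-binding proteins sets how long they last. The 9 genes described here are factors of this kind, chosen by their symbols with earlier results of these data known. All 9 were found among the 54532 genes of the count table. They are the AU-rich element binders Zfp36 (tristetraprolin, TTP), Zfp36l1 and Zfp36l2, the endoribonucleases Zc3h12a (Regnase-1) and Zc3h12c (Regnase-3), the deadenylase cofactors Btg1 and Btg2, and the RNA-binding proteins Elavl1 (HuR) and Khsrp (KSRP). Their levels were compared between AE9a leukemia cells of the endosteal bone marrow (EBM) and of the central bone marrow (CBM), with 3 RNA-seq libraries from each region. Of the 9, Zc3h12a alone was higher in every EBM library than in every CBM library, at 102 ± 39.6 against 32.7 ± 19.7 CPM (counts scaled to library size, mean ± SD, n = 3 each), and its difference passed an adjusted threshold with DESeq2 and not with edgeR.

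AE9a is a truncated splice form of the AML1-ETO fusion of t(8;21) acute myeloid leukemia. The cells of both groups came from C57BL/6 mice that had been transplanted with c-Kit+ hematopoietic cells carrying AE9a and GFP on a retrovirus, after serial passage of the leukemia in recipients. CBM cells were flushed from the bones, whereas EBM cells were set free from the flushed bones with collagenase, and GFP+ leukemia cells were sorted from both. Because the digestion was applied to the EBM cells and not to the CBM cells, region and digestion cannot be told apart. The labels do not say whether libraries came from separate mice, so the p-values below measure only the spread between these libraries. The labels name no other treatment and no gene deletion in either group, and give no age for the mice. Before and after sorting the cells were kept in medium with serum.

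Gene counts came to between 16436526 and 19462964 per library, and 3 counts, taken as the detection floor, equalled between 0.149 and 0.193 CPM, which covers counting error only. All 9 genes passed the filter on low counts, which kept 13352 genes. The leukemia and progenitor markers summed to between 923 and 1313 CPM, most of it Runx1, Myb and Kit. Kit lay at 196 to 239 CPM and Myb at 268 to 352 CPM in the 6 libraries. Others of the list varied more, such as Runx1 (330 to 722 CPM), Cd34 (1.16 to 16.4 CPM) and Mpo (1.65 to 35.8 CPM). Osteoblast and stromal markers summed to between 7.89 and 13.2 CPM, most of it Runx2, and Alpl, Bglap2 and Sp7 had no count in any library. Endothelial markers summed to between 79.0 and 100.1 CPM, nearly all of it Egfl7, with Cldn5 and Emcn at 0. Monocyte and macrophage markers summed to between 13.6 and 29.6 CPM and lymphoid markers to between 9.64 and 16.7 CPM. Erythroid markers ranged from 2548 to 8089 CPM and neutrophil markers from 3.42 to 237 CPM. For none of the 7 marker lists did the summed levels of the regions separate. In these bulk libraries, fewer cells of a type and less RNA per cell cannot be told apart.

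As background, the TTP family binds AU-rich elements in 3′ untranslated regions (UTRs) and brings in the CCR4-NOT deadenylase, which shortens the poly(A) tail. Regnase-1 cuts stem-loops in the 3′ UTRs of cytokine and other inflammatory mRNAs. BTG proteins bind the catalytic deadenylase subunits of CCR4-NOT and speed deadenylation. HuR binds AU-rich and U-rich elements and mostly stabilises its targets, and KSRP binds AU-rich elements and promotes decay. Several of these genes are themselves induced by the signals whose mRNAs they clear, and their own mRNAs carry decay elements, so they form feedback loops.

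The AU-rich heptamer bound by the TTP family, TATTTAT in DNA letters, was counted on the sense strand of the 3′ UTR of the longest coding transcript of each gene, with overlapping copies counted (GENCODE M21, GRCm38). Elavl1 had 8 copies, Zfp36, Zfp36l1 and Zfp36l2 had 3 each, Zc3h12c had 2 and Btg2 had 1. Zc3h12a, Btg1 and Khsrp had none. Thus 6 of the 9 genes (66.7%) held at least 1 copy and 4 (44.4%) held at least 3, beside 29.1% and 3.75% of the 10727 tested genes with a coding transcript, whose median 3′ UTR was shorter (1175 bases against 1835 in the 9 genes). The 30-base windows below show the densest stretch of copies in the mRNAs of the 3 TTP family genes and of Elavl1, and for comparison that of the cytokine Il1b, a known target of the TTP family. The sequences are from GENCODE M21 transcripts on GRCm38, written 5′ to 3′ with heptamers in capitals.
Zfp36 (chr7:28376957-28376986, minus strand): cttTATTTATgacgacttTATTTATtgtat
Zfp36l1 (chr12:80108413-80108442, minus strand): acgTATTTATtgccaaactatgcttttttt
Zfp36l2 (chr17:84184905-84184934, minus strand): actTATTTATtatcttgtgaaaagtataca
Elavl1 (chr8:4285779-4285808, minus strand): aatTATTTATTTATTTATTTATttttattt
Il1b (chr2:129364799-129364828, minus strand): accTATTTATTTATgTATTTATtgattggt

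The 4 copies in the Elavl1 window overlapped in a row. The Il1b window held 3 copies, a pair that overlapped and another set apart by 1 base. The Zfp36 window held 2 separate copies, and those of Zfp36l1 and Zfp36l2 held 1 each. A match is a description of the sequence, not a measured binding site.

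Compared per gene length, the 9 mRNAs spanned a wide range of levels. The mean over the 6 libraries was 180 CPM per kilobase for Zfp36l2, 141 for Zfp36, 117 for Btg2 and 70.0 for Khsrp. It was 42.3 CPM per kilobase for Zfp36l1, 29.6 for Btg1 and 23.4 for Zc3h12a. The lowest were Elavl1 with 7.597 and Zc3h12c with 6.34 CPM per kilobase. Zfp36l2 stood at percentile 98.2 of the tested genes on this scale and Zc3h12c at percentile 47.9. Khsrp and Zfp36l1 were the only neighbours in this order whose libraries did not overlap, with the lowest Khsrp library at 62.4 and the highest Zfp36l1 library at 55.2 CPM per kilobase, and all other neighbours overlapped. The lengths are those of the deposited table, which gives Elavl1 10363 bases against 5743 for its longest coding transcript and Zfp36 3470 against 2790.

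**Figure D1:**
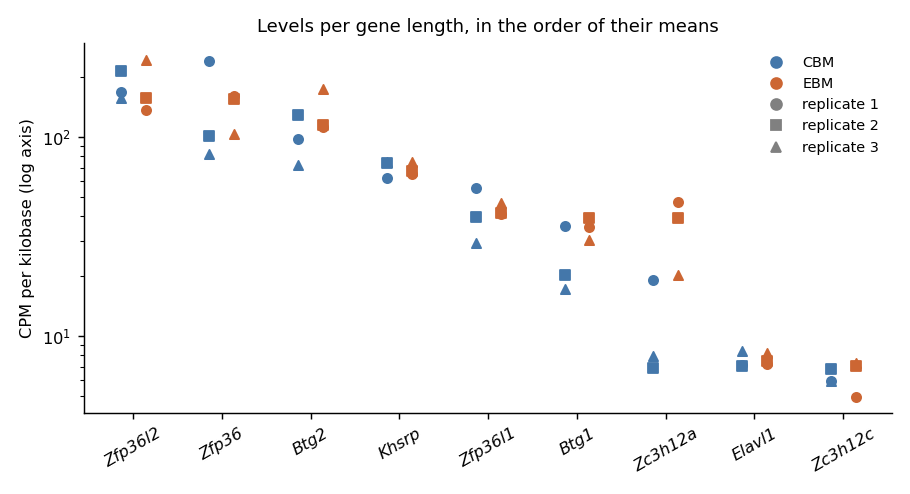
Each point is 1 library (CBM blue, EBM orange; the symbol is the replicate number), and the log axis gives CPM per kilobase of the deposited gene length. Genes are ordered by their mean, from Zfp36l2 at 180 to Zc3h12c at 6.34 CPM per kilobase, and the Zc3h12a points spread most widely.

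Zc3h12a encodes Regnase-1, an endoribonuclease of macrophages and lymphocytes that degrades mRNAs such as Il6, Nfkbiz and its own. The gene lies on the minus strand at chr4:125118423-125127840 (GRCm38; ENSMUSG00000042677). It measured 55.4, 19.95 and 22.8 CPM in CBM libraries 1, 2 and 3, and 135, 113 and 58.3 CPM in EBM libraries 1, 2 and 3. These values rest on 379 to 973 counts per CBM library and 907 to 2450 counts per EBM library, far above the floor. The groups did not overlap, though CBM library 1 and EBM library 3 lay close together. The mean was 3.12-fold higher in EBM, with a log2 fold change of 1.64 (SE 0.47, 95% interval 0.52 to 2.76).

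With edgeR's quasi-likelihood test, the Zc3h12a difference ranked 332 of the 13352 genes (unadjusted p = 0.0106, adjusted p = 0.427). None of the 9 genes passed an adjusted p of 0.05 in edgeR, nor did any of the 13352 genes tested (0%). Without adjustment, 1056 genes had an edgeR p under 0.05, and 535 (4.01%) of all genes tested did so with a higher level in EBM, as did 1 of the 9 genes, Zc3h12a. DESeq2 gave Zc3h12a an adjusted p of 0.0105 and called it as the only one of the 9, beside 131 of 12619 genes (1.04%) called higher in EBM. The exact two-sided permutation test of log2 CPM gave p = 0.1 for Zc3h12a, the smallest that 3 against 3 libraries can give. Of all genes tested, 998 (7.47%) had every EBM library above every CBM library and 1022 (7.65%) had every EBM library below, against 1 and 0 of the 9. A count of 1 among 9 genes is close to the background share.

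The size of the Zc3h12a difference depended on CBM library 1. Without that library the log2 fold change was 2.25 (4.77-fold), and without the other libraries in turn it lay between 1.39 and 1.91. Adjusted p ranged from 0.0105 to 0.989 over the 13 alternative settings, all of which kept the direction. Zc3h12a had an unadjusted p under 0.05 in each of the 13. Among 8735 genes with a mean of at least 10 CPM, the one whose pattern over the 6 libraries was most like that of Zc3h12a was Csrnp1, a nuclear factor of the immediate-early kind, with a root-mean-square difference of 0.102 on the centred log2 CPM scale. Csrnp1 measured 78.2, 26.5 and 35.8 CPM in CBM and 209, 173 and 95.7 CPM in EBM, with the libraries in the same order as for Zc3h12a within each region.

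Zc3h12c, the paralog Regnase-3 described mainly in myeloid cells, did not show this pattern. It measured 40.9, 46.6 and 40.7 CPM in CBM and 33.95, 48.2 and 49.9 CPM in EBM, so that the groups overlapped fully (log2 fold change 0.04, SE 0.17, 95% interval -0.35 to 0.43, edgeR adjusted p = 0.989). Summed per kilobase, Zc3h12a and Zc3h12c came to 17.6 ± 6.57 CPM per kilobase in CBM and 41.8 ± 12.7 in EBM (SD, n = 3 each), without overlap. Zc3h12a made up 76.3%, 50.4% and 57.1% of this sum in CBM and 90.4%, 84.7% and 73.5% in EBM. The shares of CBM library 1 and EBM library 3 crossed.

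**Figure D2:**
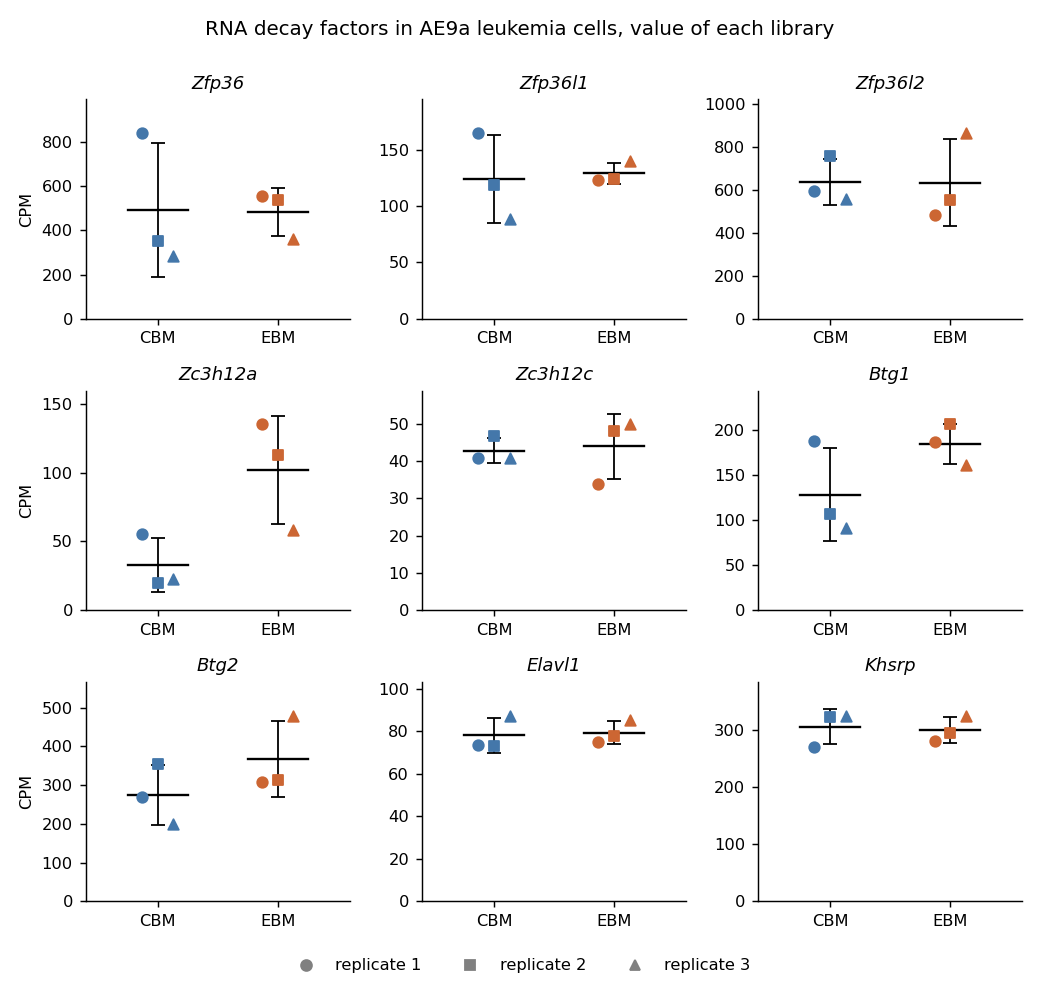
Each panel plots the CPM of 1 gene on a linear axis from 0, with 1 point per library (symbol by replicate number), a line at the mean and a bar of ± 1 SD (n = 3). Zc3h12a is the only panel in which all EBM points, 58.3 to 135 CPM, lie above all CBM points, 19.95 to 55.4 CPM. Of all genes tested, 7.47% had all EBM libraries above.

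Zfp36, the founding member of its family and an immediate-early gene, lies at chr7:28376784-28380253. It measured 841, 353 and 285 CPM in CBM and 556, 540 and 359 CPM in EBM. CBM library 1 held the highest value of all 6 and CBM library 3 the lowest, a 2.95-fold range within CBM. The means were 493 ± 304 and 485 ± 109 CPM (SD, n = 3 each), and the log2 fold change was -0.02 (SE 0.41, 95% interval -1.01 to 0.96, edgeR adjusted p = 0.997). This interval spans changes of about the size seen for Btg1 in either direction, so a difference of that size was not detectable with these libraries. Without CBM library 1 the log2 fold change of Zfp36 was 0.61 (edgeR, unadjusted p = 0.0326, adjusted p = 0.685), and the EBM libraries then all lay above the CBM libraries, as did 11.7% of all genes in that setting.

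Zfp36l1 and Zfp36l2 are paralogs with the same tandem zinc fingers, known for their part in restraining the cell cycle in lymphocyte precursors and, for Zfp36l2, in the upkeep of blood stem cells. Zfp36l2 measured 596, 758 and 556 CPM in CBM and 484, 554 and 867 CPM in EBM, with the highest and the lowest value both in EBM (log2 fold change -0.00, SE 0.24, 95% interval -0.57 to 0.56). Zfp36l1 measured 165, 119 and 88.2 CPM in CBM and 123, 124 and 140 CPM in EBM, so the EBM values fell inside the CBM range (log2 fold change 0.06, SE 0.22, 95% interval -0.46 to 0.58). The edgeR adjusted p-values were 0.999 and 0.988.

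The family sum differed between regions by less than the spread between libraries, at 364 ± 98.9 CPM per kilobase in CBM and 363 ± 29.7 in EBM, while its make-up varied between libraries. Zfp36 gave 52.0% of the sum in CBM library 1, 47.3% in EBM library 1 and 44.0% in EBM library 2. It gave 28.5%, 30.5% and 26.1% in CBM libraries 2 and 3 and EBM library 3. Zfp36l2 took the other part, at 36.2% to 44.3% in the first 3 of these libraries and 58.5% to 62.0% in the others. Zfp36l1 stayed at 10.96% to 12.2% throughout. This split ran across the regions and not along them.

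**Figure D3:**
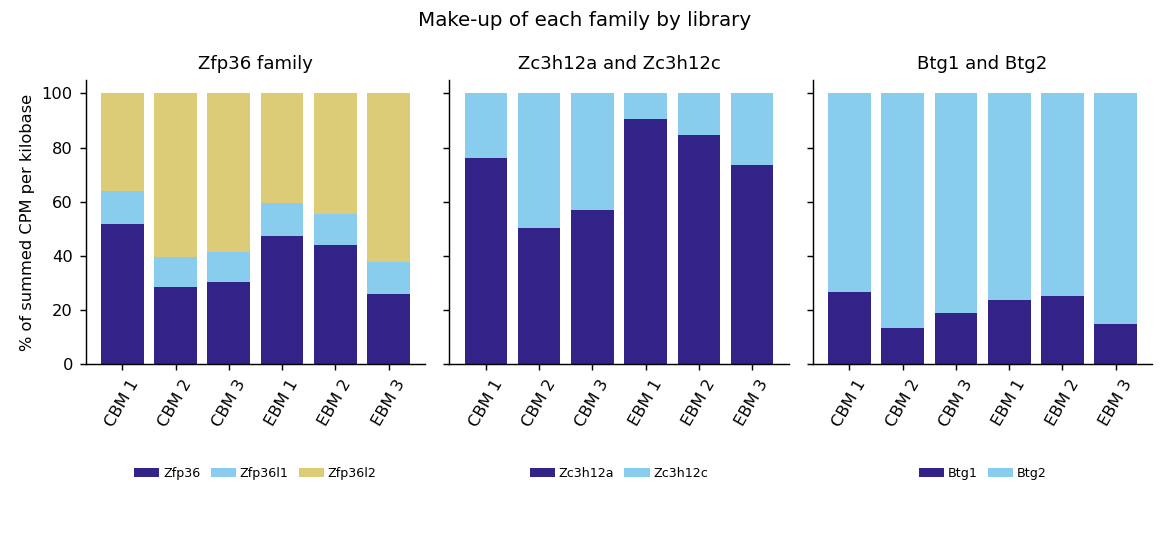
Stacked bars give the percent of the summed CPM per kilobase that each gene holds in each of the 6 libraries, with 1 panel per family. The Zfp36 share is above 40% in CBM 1, EBM 1 and EBM 2 and near 30% or below in the others, whereas the Zc3h12a share is highest in EBM 1 and EBM 2.

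These 3 libraries also had the 3 lowest scores on the first principal component of all tested genes, at -38.5 for CBM library 1, -36.4 for EBM library 1 and -19.8 for EBM library 2, against 42.9, 5.81 and 46.0 for CBM libraries 2 and 3 and EBM library 3. Summed leukemia and progenitor markers grouped the libraries in the same way, at 1313, 1215 and 1137 CPM against 923, 1047 and 956 CPM. Not all genes of that list did so. Runx1 split in this way, at 722, 616 and 506 CPM against 330, 482 and 371 CPM. Kit did so narrowly, at 224.9, 226.8 and 238.6 CPM against 210.3, 223.9 and 195.7 CPM. Myb overlapped, at 315, 268 and 285 CPM against 322, 308 and 352 CPM, and so did Mpo. Summed monocyte and macrophage markers also grouped the libraries in this way, at 25.3, 23.3 and 29.6 CPM against 19.1, 17.3 and 13.6 CPM. The sums of the other marker lists overlapped between these sets of libraries. Summed erythroid markers were 2548, 3084 and 4402 CPM in the first 3 libraries and 8089, 3551 and 6307 CPM in the others, in the same orders. Neutrophil markers were 8.19, 50.2 and 166 CPM against 237, 3.42 and 35.7 CPM. Within each region Zc3h12a was also higher in the first 3 libraries. It was at 55.4 CPM in CBM library 1 against 19.95 and 22.8 CPM in CBM libraries 2 and 3. In EBM it was at 135 and 113 CPM in libraries 1 and 2 against 58.3 CPM in library 3. The part of progenitor, monocyte, erythroid or neutrophil RNA in the Zfp36, Btg1 and Zc3h12a levels was not tested.

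Btg1 and Btg2 are antiproliferative factors, Btg1 being known for keeping lymphocytes quiescent and Btg2 as a p53 target. Btg1 (chr10:96617006-96622809) measured 187, 106 and 90.6 CPM in CBM and 186, 206 and 161 CPM in EBM. CBM library 1 sat among the EBM libraries while CBM libraries 2 and 3 lay below all of them. The mean was 1.44-fold higher in EBM (log2 fold change 0.52, SE 0.27, 95% interval -0.13 to 1.17) and did not pass the edgeR test (unadjusted p = 0.0976, adjusted p = 0.702). Without CBM library 1 the log2 fold change of Btg1 was 0.90 (edgeR, unadjusted p = 0.000833, adjusted p = 0.234). All EBM libraries then lay above the CBM libraries, as for 11.7% of all genes in that setting. The gene most like Btg1 in pattern was Plk3, a stress-responsive kinase whose mRNA is itself a known TTP target, with a root-mean-square difference of 0.102, at 34.5, 18.6 and 19.5 CPM in CBM and 36.4, 36.5 and 30.01 CPM in EBM.

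Btg2 (chr1:134075170-134079120) measured 268, 354 and 199 CPM in CBM and 308, 314 and 479 CPM in EBM. EBM library 3 was the highest and CBM library 2 the second highest, so the regions overlapped (log2 fold change 0.42, SE 0.26, 95% interval -0.19 to 1.03, edgeR adjusted p = 0.753). Without CBM library 2 the log2 fold change was 0.65 (edgeR, unadjusted p = 0.0384, adjusted p = 0.631), and the EBM libraries then lay above, as for 13.4% of all genes in that setting, whereas without EBM library 3 it was 0.18. The order of libraries differed between Btg1 and Btg2, since Btg1 was lowest among the EBM libraries where Btg2 was highest. The gene most like Btg2 was 1700017B05Rik, with a root-mean-square difference of 0.120. The sum of Btg1 and Btg2 was 124 ± 30.7 CPM per kilobase in CBM and 169 ± 31.7 in EBM, and Btg2 held 73.4% to 86.5% of it.

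Elavl1 and Khsrp act in opposite directions on AU-rich mRNAs, and varied least between libraries. Elavl1 measured 73.8, 73.1 and 87.4 CPM in CBM and 74.9, 77.7 and 85.5 CPM in EBM (log2 fold change 0.02, SE 0.11, edgeR adjusted p = 0.989). Khsrp measured 269, 322 and 323 CPM in CBM and 281, 293 and 324 CPM in EBM (log2 fold change -0.03, SE 0.11, edgeR adjusted p = 0.989). Over all 6 libraries the highest value was 1.196 times the lowest for Elavl1 and 1.204 times for Khsrp, against 6.78 times for Zc3h12a, 2.95 for Zfp36, 2.41 for Btg2 and 2.27 for Btg1. The 95% intervals of the log2 fold change ran from -0.24 to 0.28 for Elavl1 and from -0.29 to 0.24 for Khsrp, the narrowest of the 9. Ccl25 lies on the opposite strand and overlaps Elavl1 by 204 bases, with 51 to 117 counts per library against at least 1297 for Elavl1. Longer overlaps on the opposite strand were those of Gm26669 with Zfp36l1 (4967 bases, 11 to 47 counts against at least 1777), of Gm44710 with Zfp36 (1274 bases, 1 to 5 counts) and of AC132455.1 with Zfp36l2 (2192 bases, counts not analysed here). Since strand use in the counting is not stated, how many reads of these pairs were assigned to each gene is uncertain.

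**Figure D4:**
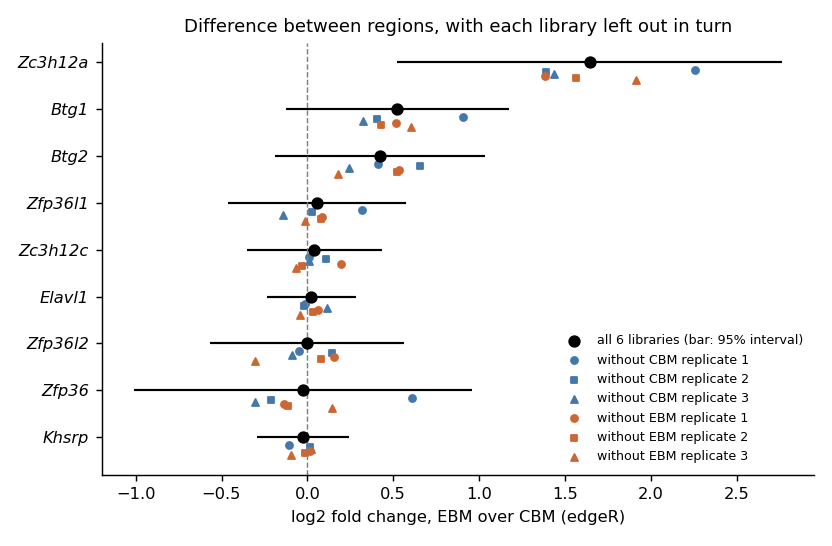
Black points and bars give the edgeR log2 fold change of EBM over CBM from all 6 libraries with its 95% interval, and the small symbols beneath give the value with 1 library left out. Zc3h12a is the only gene whose interval lies wholly above 0 (0.52 to 2.76), and leaving out CBM replicate 1 moves Zfp36, Btg1 and Zc3h12a to higher values.

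The promoters of the 4 genes with the widest spread among libraries are shown because their library patterns differed. They are the 250 bases before the RefSeq start of each gene (GRCm38.p6), written 5′ to 3′ on the strand of the gene, with capitals for a cyclic AMP response element (TGACGTCA), a serum response CArG box or a TATA box (TATAAA).
Zc3h12a (chr4:125127882-125128131, minus strand): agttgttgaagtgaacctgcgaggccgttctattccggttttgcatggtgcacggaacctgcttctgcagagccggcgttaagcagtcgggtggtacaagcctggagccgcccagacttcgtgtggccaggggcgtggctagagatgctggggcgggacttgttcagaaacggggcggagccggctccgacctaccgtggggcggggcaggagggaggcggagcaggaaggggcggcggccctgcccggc
Zfp36 (chr7:28379229-28379478, minus strand): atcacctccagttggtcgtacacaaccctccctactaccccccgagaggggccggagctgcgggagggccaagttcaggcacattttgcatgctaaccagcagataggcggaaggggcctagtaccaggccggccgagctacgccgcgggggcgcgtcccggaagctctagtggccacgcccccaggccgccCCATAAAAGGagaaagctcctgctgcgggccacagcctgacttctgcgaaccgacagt
Btg1 (chr10:96616751-96617000, plus strand): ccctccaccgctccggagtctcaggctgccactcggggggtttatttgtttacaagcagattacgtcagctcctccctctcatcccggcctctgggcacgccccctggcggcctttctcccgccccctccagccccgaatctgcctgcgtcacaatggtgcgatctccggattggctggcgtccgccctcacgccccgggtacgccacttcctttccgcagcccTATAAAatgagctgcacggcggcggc
Btg2 (chr1:134079156-134079405, minus strand): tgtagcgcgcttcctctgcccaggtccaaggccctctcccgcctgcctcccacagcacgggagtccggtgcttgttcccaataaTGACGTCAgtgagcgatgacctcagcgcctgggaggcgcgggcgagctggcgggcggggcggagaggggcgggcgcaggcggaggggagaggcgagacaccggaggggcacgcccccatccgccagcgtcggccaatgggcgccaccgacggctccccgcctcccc

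The Zfp36 promoter held a CArG box 58 to 49 bases before the start, a motif present in 1.47% of the 32851 RefSeq promoters searched over the same length. The Btg2 promoter held a full cyclic AMP response element 166 to 159 bases before its start, present in 1.55% of promoters, and the Btg1 promoter a TATA box at 26 to 21 bases, present in 7.59%. The TATA box was searched on the sense strand and the other motifs on both strands. Zc3h12a had none of these, nor an AP-1 site (TGAGTCA, also read as TGACTCA, in 4.46% of promoters), a kappaB site (7.25%) or a heat shock element (TTCNNGAA or GAANNTTC, 12.8%) in this window. Of the other genes searched, which did not include Zfp36l2, Zfp36l1 had a TATA box at 29 to 24 bases and Zc3h12c a kappaB match in 1 of its promoters. The core of the cyclic AMP response element alone (TGACG, 17.8% of promoters) lay within the Btg2 element, and at 2 places each in the Btg1 and Khsrp promoters and 1 in a Zc3h12c promoter. These matches are letters in a window and say nothing about binding in these cells.

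The machinery through which these factors act showed smaller differences than Zc3h12a. Median log2 fold changes are given beside 0.00 for all genes tested, and the lists were read for unadjusted edgeR p under 0.05 since no gene passed the adjusted threshold. Of all genes tested, 535 (4.01%) were higher in EBM with such a p and 521 were lower. Of 15 genes of CCR4-NOT, PAN2-PAN3 and the separate poly(A) ribonuclease Parn, none had such a p, and the median was 0.02. The 4 with the smallest p were Parn (0.24), Cnot6 (-0.22), Cnot10 (0.18) and Cnot4 (0.13). Of 16 decapping and 5′ decay genes none had such a p either (median 0.03), and the first 4 were Dcp2 (-0.21), Xrn1 (-0.23), Dcp1b (-0.13) and Dcp1a (-0.10). For the decapping enzyme Dcp2 and the 5′ exonuclease Xrn1, 2 of the 16, every EBM library lay below every CBM library, as for 7.65% of all genes tested.

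Of 15 exosome and 3′ decay genes, 1 had an unadjusted edgeR p under 0.05, the core subunit Exosc8, at 221 ± 15.3 CPM in CBM and 281 ± 28.8 CPM in EBM (log2 fold change 0.35, adjusted p = 0.484). It was followed by Exosc10 (0.18), Dis3l2 (0.15) and Exosc7 (0.17), and the list median was 0.06. MK2, a kinase activated by p38, phosphorylates TTP, to which 14-3-3 proteins then bind, and the phosphatase PP2A reverses this. The list for this arm (p38, its activators, MK2 and its paralog, 14-3-3 genes and the PP2A subunit gene Ppp2ca) had a median of 0.19. At that threshold 2 of its 13 tested genes were higher in EBM, beside 4.01% of all genes tested. Both were kinases, the MK2 paralog Mapkapk3, at 144, 110 and 137 CPM in CBM and 192, 183 and 163 CPM in EBM (log2 fold change 0.46, adjusted p = 0.417), and the p38 activator Map2k3 (0.43, adjusted p = 0.596). The 14-3-3 gene Ywhae (0.20) and Ppp2ca (0.19) came next. These and Mapkapk3, 3 of the 13, had all EBM libraries above CBM, as did 7.47% of all genes tested.

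Other RNA-binding decay regulators had 19 of 25 genes tested and a median of -0.04. At an unadjusted edgeR p under 0.05, 2 were higher and 2 lower in EBM, beside 535 higher and 521 lower of all 13352 genes tested. The BTG/TOB family member Btg3 measured 39.0, 38.4 and 35.6 CPM in CBM and 51.3, 62.3 and 69.3 CPM in EBM (log2 fold change 0.69, SE 0.13, adjusted p = 0.204). Its groups were well apart, unlike those of Btg1 and Btg2. Arid5a, which protects Il6 mRNA from Regnase-1, measured 2.96, 2.11 and 2.88 CPM in CBM and 8.998, 6.24 and 3.47 CPM in EBM (1.24, adjusted p = 0.447). Lower in EBM were the m6A reader Ythdf2 (-0.33, adjusted p = 0.596) and the deadenylase adaptor Tob1 (-0.51, adjusted p = 0.625).

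Of 33 transcripts known to be bound by the TTP family or Regnase, 21 were tested, 6 of them higher and 1 lower in EBM at an unadjusted edgeR p under 0.05, beside 4.01% of all genes tested that were higher at that threshold. The median log2 fold change was 0.50, beside 0.00 for all genes. EBM libraries lay above all CBM libraries for 6 of the 21 and below for 1, beside 7.47% and 7.65% of all genes. The list was chosen with earlier results of these data known, so these counts do not test for an excess. Nfkbiz, a Regnase-1 target that encodes an IkappaB-type coactivator, measured 70.4, 37.6 and 34.98 CPM in CBM and 195, 229 and 154 CPM in EBM (log2 fold change 2.01, SE 0.30, adjusted p = 0.157). The IkappaB family member Bcl3 was at 3.02 ± 1.003 and 17.2 ± 7.45 CPM (2.51, adjusted p = 0.170), and the costimulatory receptor Tnfrsf4 at 2.54 ± 0.287 and 4.76 ± 0.223 CPM (0.90, adjusted p = 0.275). The cytokine Il1b measured 33.0, 5.001 and 8.39 CPM in CBM and 208, 170 and 63.8 CPM in EBM (3.26, SE 0.79, adjusted p = 0.331). In Il1b as in Zc3h12a, CBM library 1 was the highest of CBM and EBM library 3 the lowest of EBM.

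The tested transcripts of that list were rich in the heptamer, with at least 1 copy in 17 of 21 (81.0%) and at least 3 in 11 (52.4%). This is in part built in, since the list was made of known targets of the TTP family or Regnase. Nfkbiz, Bcl3 and Tnfrsf4 held none in their 3′ UTRs, as was the case for Zc3h12a, while Il1b held 3. RNA levels alone do not separate synthesis from decay, and neither was measured here.

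**Figure D5:**
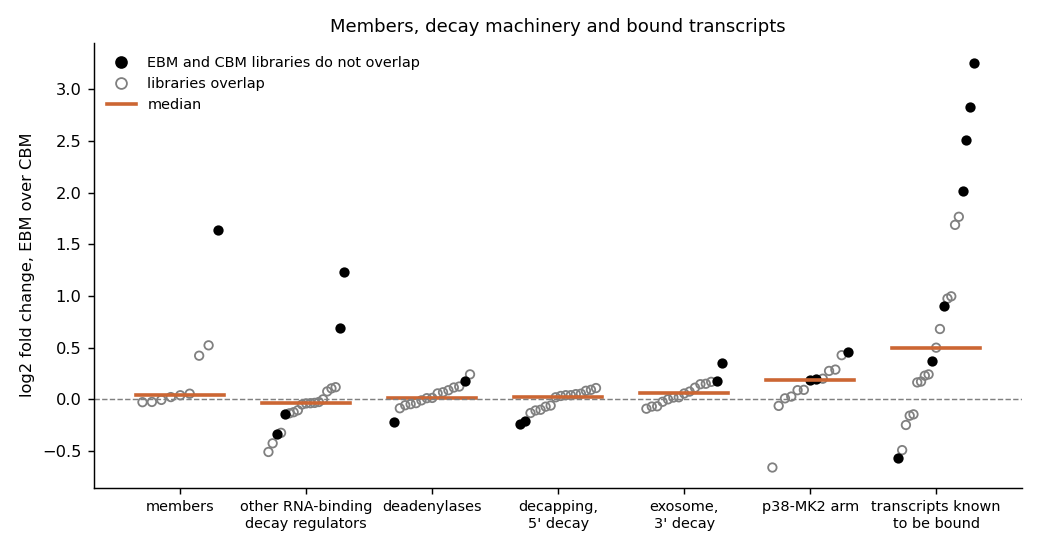
Each circle is the edgeR log2 fold change (EBM over CBM) of 1 tested gene, grouped by list, with filled circles where the libraries of the regions do not overlap and an orange line at the list median. The deadenylase, decapping and exosome genes lie between -0.23 and 0.35. The p38-MK2 arm runs from -0.66 to 0.46 and the other RNA-binding decay regulators from -0.51 to 1.24. The bound transcripts have a median of 0.50 and run from -0.57 to 3.26 (Il1b). The lists were chosen with earlier results of these data known, so the contrast between them is not a test.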

How the data were processed

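RNA-seq was done on 6 libraries (3 CBM, 3 EBM). The authors deposited raw counts per gene, made from rRNA-depleted, directional, paired-end libraries. The submitters' processing notes name HISAT2 2.0.5 and mm10, while the counting tool, annotation and strand setting are not given in the sources used here, so genes with a neighbour on the opposite strand are uncertain. Totals were 16436526 to 19462964 counts. Genes were filtered with filterByExpr, normalized by TMM and tested with edgeR 4.0.16 (quasi-likelihood, no block, Benjamini-Hochberg over the 13352 genes tested) in R 4.3.3. CPM used the TMM-scaled totals, and log2 CPM a prior count of 2. DESeq2 1.42.0, limma-voom (limma 3.58.1), other factors and filters, the replicate block and each library left out were alternatives. The fit was tested on simulated data. The 9 genes and the lists were chosen with earlier results of these data known. The genes named from each list are the 4 with the smallest edgeR p, and likeness is named for the 3 of the 9 with the largest fold change. The 20 relabellings of the libraries were enumerated for exact p-values.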

Additional observations from a re-analysis of the deposited data

How the results depend on the processing

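The fold changes of Zc3h12a, Btg1 and Btg2 kept their direction under all 13 alternatives. The number of genes past an adjusted p of 0.05 was 0 in limma-voom and in every edgeR fit with a filter on low counts. It was 40 in edgeR without that filter and 175 with DESeq2. The number of the 9 genes called was 1 with DESeq2 (Zc3h12a) and 0 under the other 12. With libraries left out in turn, the number of the 9 with all EBM libraries above ranged from 1 to 4 and the number below from 0 to 1; the 4 without CBM library 1 were Zfp36, Zfp36l1, Zc3h12a and Btg1, and the 1 below, without EBM library 3, was Zfp36l2. Under the same settings 10.7% to 13.4% of all genes lay above and 10.5% to 14.8% below. Values near 0 changed sign. For Zfp36 the log2 fold change was 0.12 with limma-voom and 0.12 with the replicate block, and -0.30 to 0.61 with a library left out. For Zfp36l2 it was 0.00238 with DESeq2 and 0.00288 without a filter, and -0.30 to 0.16 with a library left out. For Elavl1 it was -0.0113 with upper-quartile factors and -0.0433 to 0.112 with a library left out. Left-out ranges were -0.107 to 0.0187 for Khsrp, -0.0674 to 0.197 for Zc3h12c and -0.14 to 0.32 for Zfp36l1. The cause of these shifts was not tested. Same-numbered libraries of the 2 regions correlated at 0.676, -0.204 and 0.203 in their deviations from the group means, so the numbers are not taken to pair them. With the replicate block, 0 genes were called and 1203 had an unadjusted p under 0.05 against 1056 without it, and edgeR gave Zc3h12a 1.70 (adjusted p = 0.326) and Btg1 0.59 (adjusted p = 0.550). With 3 libraries per region, the width of the printed intervals sets the precision of each fold change.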
